A study of Mus musculus with 16 samples.

Results

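The genes described here are 53 enzymes that write or remove chemical marks on histones and DNA. They were chosen by name, with earlier results of these data known. Every array probe carrying one of the 53 symbols was kept, which gave 53 of the 31093 distinct gene names on the array and 83 of its 39429 non-control probes. The measurements come from sorted mouse bone marrow (BM) progenitors: macrophage-dendritic cell progenitors (MDPs), and common dendritic cell progenitors (CDPs), to which MDPs give rise. Female C57/Bl6 mice either carried PyMT-B6 tumors of 1.5 cm in the mammary fat pad or were age-matched and tumor-free. PyMT-B6 is a transplanted mammary cancer cell line derived from the MMTV-PyMT mouse, so the host cells carried no transgene and 1 line stands for the tumor. There were 4 samples, numbered 2 to 5, in each of the 4 groups, each sample pooled 2 mice, and each was labeled with Cy5 and hybridized alone to an Agilent array. The question was how the tumor and the step from MDP to CDP were associated with expression of these enzymes.

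Many chromatin-modifying enzymes work in opposing pairs. Acetyltransferases (Ep300, Crebbp, Kat2a, Kat2b, Kat5) add acetyl groups to histone tails and deacetylases (the Hdac and Sirt genes) take them away. Lysine methyltransferases (PRC2 with its catalytic subunits Ezh1 and Ezh2, the Setd and Ehmt genes) are opposed by demethylases of the KDM1 and JmjC families. The Prmt genes and Carm1 methylate arginine. On DNA, Dnmt3a and Dnmt3b set new cytosine methylation, Dnmt1 copies it at replication, and the Tet dioxygenases oxidize it. Several of them, among them Tet2, Dnmt3a and Ezh2, are well known as regulators of hematopoietic stem and progenitor cells.

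Of the 53 genes, 51 could be tested, through 80 probes. A probe entered the tests if some group had it well above background on 3 or 4 of its arrays, and 75 of the probes were so on all 16 arrays. The 3 probes not tested were the single probes of Kdm4d, which was above background on no array, and Hdac11, and 1 of the 2 probes of Kdm4a. A value below is the log2 processed signal minus the 75th percentile of its array. It compares samples for the same probe and says nothing about one gene against another. A probe was called when limma gave a Benjamini-Hochberg adjusted p under 0.05 over all 27433 tested probes together with a fold change above 1.5.

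Between 58.8% and 71.5% of probes were well above background on an array, arrays of a group correlated with r from 0.904 to 0.977, and the 6 progenitor markers checked (Kit, Flt3, Csf1r, Cx3cr1, Csf2ra and Irf8) were above background on every array. Of these, Kit was called lower in tumor-bearing CDPs (-1.34, adjusted p = 0.00427) and changed by -0.13 in MDPs, and the 3 Cx3cr1 probes changed by -1.96 to -1.27 in CDPs and -1.10 to -1.03 in MDPs without being called. The mean of the 6 lay on the log2 scale at 2.48 to 2.71 in tumor-free and 1.76 to 2.28 in tumor-bearing CDPs, and at 2.49 to 2.63 and 1.94 to 2.49 in MDPs, while their summed signal lay at 5.72 to 6.10 and 5.61 to 5.80, and at 5.36 to 5.68 and 5.01 to 5.67. Markers of other cells moved too, and the sum, which the brightest genes dominate, and the mean of a list did not always separate the same groups. The summed signal of 11 neutrophil and granule genes lay at 5.61 to 6.12 in tumor-free and 6.47 to 7.01 in tumor-bearing CDPs, and their mean overlapped, at -0.16 to 1.12 and 0.74 to 1.32. The mean of 8 conventional and plasmacytoid dendritic cell genes lay at -0.78 to -0.31 and -2.24 to -1.36 and their sum overlapped, at 4.28 to 5.10 and 4.38 to 5.33, with Xcr1 not well above background on any array. The mean of 5 monocyte and macrophage genes lay at 0.67 to 1.29 and 1.26 to 1.84 (sum 3.82 to 4.63 and 4.36 to 4.91), and that of 18 proliferation genes at 1.91 to 2.05 and 1.97 to 2.19. In MDPs the neutrophil sum lay at 6.48 to 7.06 without and 6.6 to 7.34 with a tumor and the mean at -0.51 to 1.15 and 0.00 to 1.13. The dendritic cell genes there averaged -2.5 to -1.75 and -4.04 to -2.82 and summed to 3.37 to 4.87 and 3.35 to 4.65, with Cd209a also at background in the latter. The part of these shifts in the results below was not tested. In a bulk sample, fewer cells of a type and less RNA per cell cannot be told apart.

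Many of these enzymes moved with the slide an array was printed on. Slide 1 held sample 3 of the MDPs from tumor-free mice, samples 2 and 4 of the MDPs from tumor-bearing mice and sample 5 of the CDPs from tumor-free mice, and no CDP sample from tumor-bearing mice. In 26 of the 80 member probes (32.5%) the slide 1 arrays lay above every other array of their own group, and in 18 (22.5%) they lay below, against 14.5% and 35.2% of all tested probes. Among the brightest probes of a member, the widest of these shifts upward was that of Tet2, whose slide 1 arrays averaged 0.80 above their group means, followed by Kdm4c at 0.79, Hdac2 at 0.65 and the deacetylases Hdac3 and Sirt1 at 0.64 each. The widest downward were Hdac6 at -1.01, Hdac7 at -0.88 and the H3 methyltransferase Ehmt1 at -0.77. Values with the slide as a block, or on slides 2 to 4 alone, are given below for results that they moved.

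**Figure D1:**
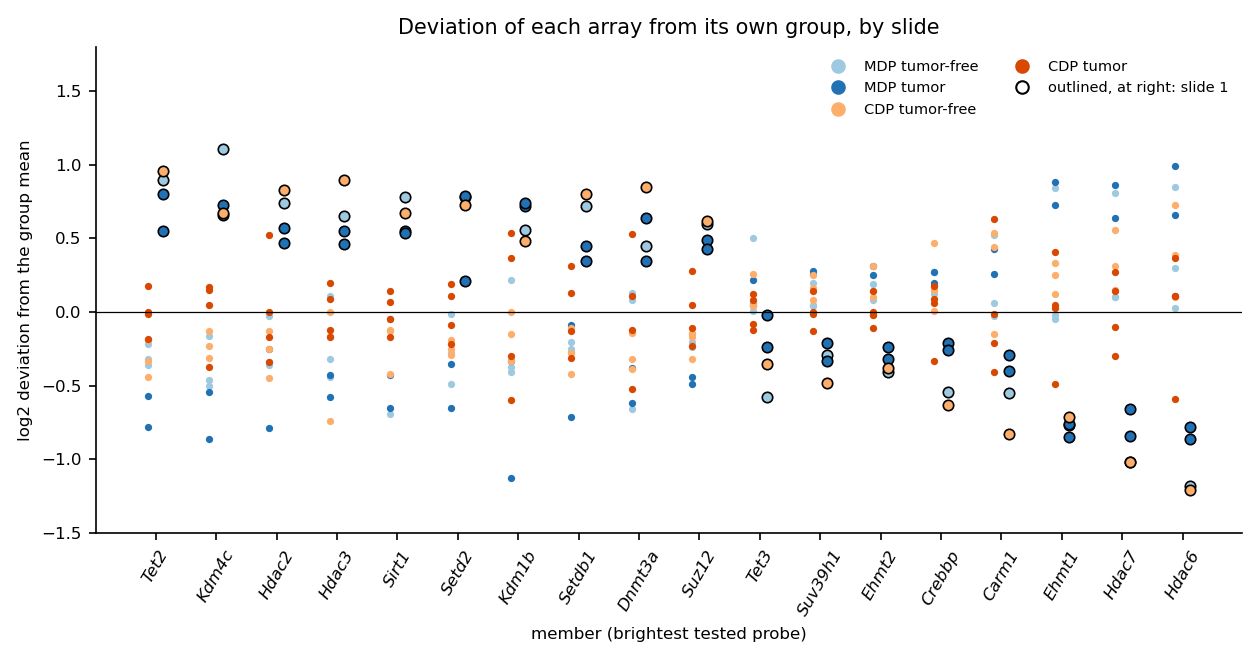
Deviation of each of the 16 arrays from the mean of its own group (log2, vertical axis) for the 10 members whose brightest probe was raised most and the 8 whose brightest probe was lowered most on slide 1, in every group with an array on that slide. Outlined points are the 4 slide 1 arrays and plain points the other 12, colored by group. From Tet2 to Suz12 the outlined points of a group lie above its plain points, and from Tet3 to Hdac6 below them.

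The tumor comparison in CDPs asked which enzymes differed between CDPs from tumor-bearing and tumor-free mice. Expression of 4 enzymes was lower in CDPs from tumor-bearing mice, each through 1 probe: the JmjC demethylase Kdm5b, the class II deacetylases Hdac9 and Hdac10, and the dioxygenase Tet1. No enzyme was called higher. The 4 called probes were 5.0% of the 80 tested, against 1.8% of all tested probes called in either direction (0.999% lower, 0.802% higher). Since the members were chosen with earlier results known, the shares here and below describe the list and do not test it. At an unadjusted p under 0.05 there were 3 member probes higher and 13 lower, 20% of them against 13.7% of all probes. The groups did not overlap for 14 member probes (17.5%) against 11.1% of all probes. The median change over the 51 tested members, each by its brightest probe, was -0.19 on the log2 scale against 0.08 for all probes. That gap rested on sample 5 of the tumor-free CDPs, the only CDP sample on slide 1. Without it the medians were -0.05 and -0.03, and with the slide as a block -0.04 and -0.05. The 4 calls also depended on the spread shared with the MDP arrays: fitted on the 8 CDP arrays alone, limma called 0 member probes, with the smallest adjusted p at 0.052 and 18 member probes at an unadjusted p under 0.05. Of all tested probes that fit called 56, and the share of all probes at its unadjusted p is not given here.

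**Figure D2:**
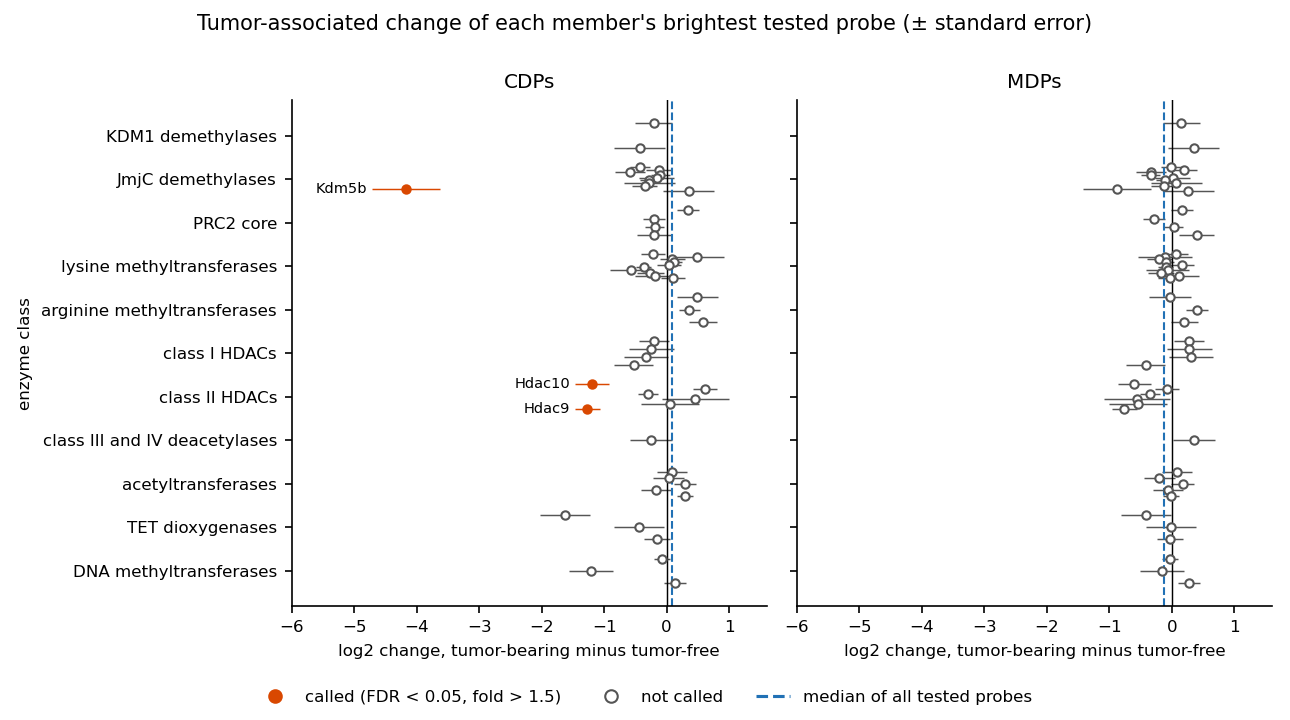
Log2 change between tumor-bearing and tumor-free mice (horizontal axis) for the brightest tested probe of each of the 51 members, by enzyme class, in CDPs (left) and MDPs (right). Points are limma estimates, bars are standard errors, filled points were called, and the dashed line is the median of all tested probes (0.08 in CDPs and -0.12 in MDPs). Kdm5b, Hdac9 and Hdac10 are filled in CDPs, no point is filled in MDPs, and the called Tet1 probe is not the brightest of its gene.

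Kdm5b removes methyl groups from lysine 4 of histone H3, a mark of active promoters. It had 3 probes, all on the plus strand of chromosome 1 within 1277 bases (mm9): chr1:136527740-136527799, chr1:136528046-136528105 and chr1:136528957-136529016. No annotation of this build was used here, so exon and UTR are not given. Their bases 31 to 60 are shown in this order because the probes gave different answers, with a run of AAAAAA in capitals:
Kdm5b A_55_P1960576: attgtttcctctgaaccccccatctccctg
Kdm5b A_55_P2065449: ggatcatttttccagaactctttgAAAAAA
Kdm5b A_52_P601980: ttttcagtaagccctcagaatattggagtg

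The middle one, A_55_P2065449, read -2.77, -2.51, -3.34 and -0.72 in tumor-free CDPs (samples 2 to 5 in order, here and below) and -7.38, -6.82, -6.49 and -5.34 in tumor-bearing CDPs. The groups did not overlap, and the probe was well above background on all 4 tumor-free arrays and on 0 of the 4 tumor-bearing arrays. The fitted change was -4.17 ± 0.54 (SE, limma, adjusted p = 0.00186, exact permutation p = 0.0286, the smallest that 4 samples against 4 allow). Since the tumor-bearing signal was not well above background, only a bound can be given, at least 7.65-fold lower. Within slides 2, 3 and 4 the difference was -3.14, -2.57 and -4.59, and with the slide as a block -3.81 (adjusted p = 0.00251).

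The other Kdm5b probes did not pass the test. A_52_P601980, above background on all 16 arrays, read -3.11, -3.18, -3.42 and -2.71 in tumor-free and -4.03, -3.55, -3.52 and -3.40 in tumor-bearing CDPs, a change of -0.52 ± 0.25 (adjusted p = 0.386). A_55_P1960576 changed by -1.24 ± 0.48 (adjusted p = 0.246) and was above background on 4 tumor-free but 1 tumor-bearing CDP array. The 3 probes thus shared a direction, and their estimates spanned 3.65 log2 units, the widest span of the 20 members with several tested probes. Across those 20 genes the median span was 0.31, and in 15 of them all probes changed in 1 direction. Of all 39429 probes, 3.21% hold AAAAAA on the probe strand and 3.10% on the other, as do 4 and 12 of the 83 member probes, so the run is a description of this probe only.

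**Figure D3:**
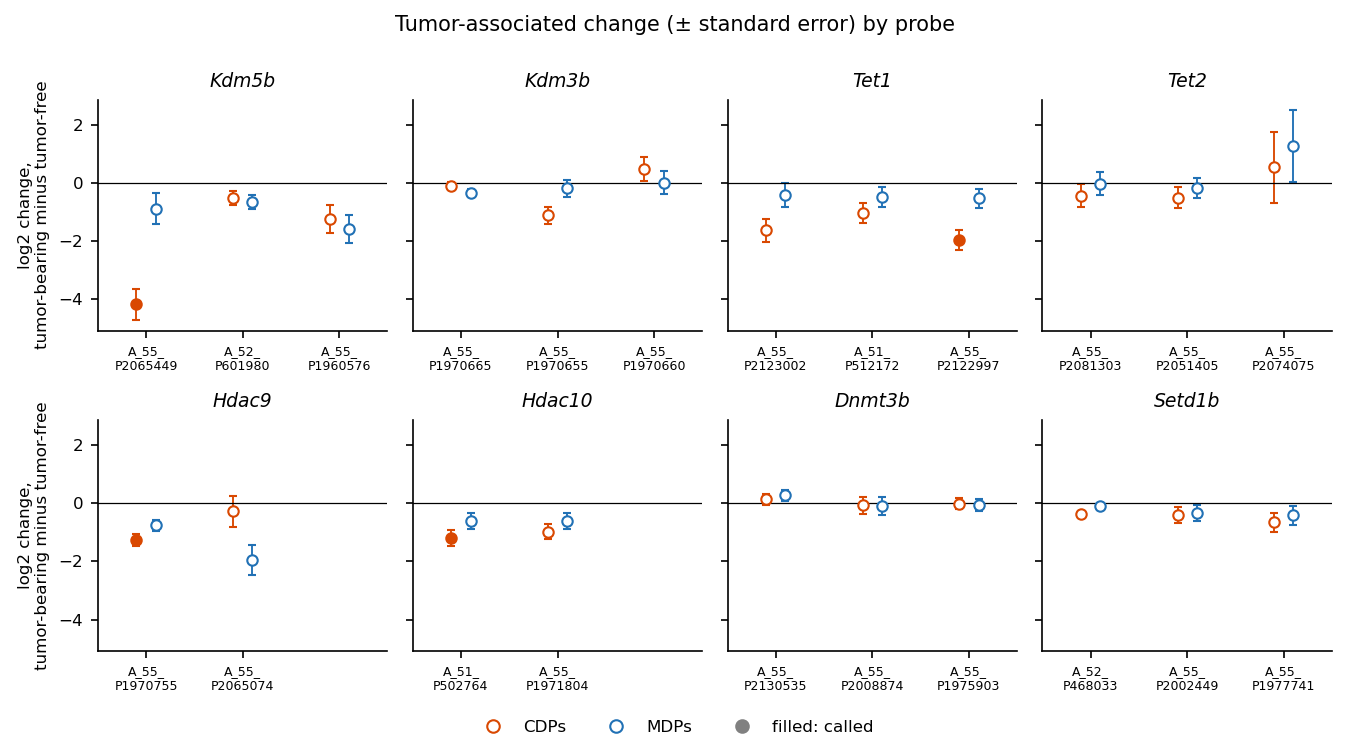
Log2 change between tumor-bearing and tumor-free mice (vertical axis) for every tested probe of 8 members, brightest probe first, in CDPs (orange) and MDPs (blue). Points are limma estimates, bars are standard errors, and filled points were called. Only 1 of the 3 Kdm5b probes drops to -4.17 in CDPs, all 3 Tet1 probes lie below 0 in both progenitors, and the Hdac9 probes exchange rank between CDPs and MDPs.

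Hdac9, a class II deacetylase that lacks DNA-binding ability of its own and represses through partner factors, was measured by 2 probes 264381 bases apart from end to end on the minus strand of chromosome 12 (mm9), at chr12:34792084-34792143 and chr12:35056405-35056464. Their bases 31 to 60 follow, since the probes gave different answers:
Hdac9 A_55_P2065074: agcctgcataaatgcccttctaggaaatga
Hdac9 A_55_P1970755: ttgtttgtatgttgccctttatgccttctg

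A_55_P1970755 read -1.03, -0.99, -0.73 and -0.84 in tumor-free CDPs and -1.75, -2.68, -2.10 and -2.15 in tumor-bearing CDPs. Every tumor-bearing sample lay below every tumor-free one, a 2.41-fold fall (-1.27 ± 0.20, adjusted p = 0.00672, exact permutation p = 0.0286). The difference within slides 2, 3 and 4 was -1.37, -1.11 and -1.22. A_55_P2065074 read -1.54, -2.59, -2.31 and -1.82 without and -1.85, -1.89, -2.94 and -2.68 with a tumor, and the groups overlapped (-0.28 ± 0.52, adjusted p = 0.865).

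Hdac10, a cytoplasmic and nuclear deacetylase of class II known for acting on polyamines, was measured by 2 probes within 222 bases of chromosome 15. A_51_P502764 read 0.75, 0.94, 0.92 and 1.06 in tumor-free and -0.12, -1.23, 0.26 and -0.01 in tumor-bearing CDPs. The samples did not overlap, and sample 3 lay furthest down (-1.19 ± 0.27, 2.29-fold, adjusted p = 0.0424). The second probe, A_55_P1971804, changed by -0.97 ± 0.27 (adjusted p = 0.0873). The Hdac10 call was the weakest of the 4: it was lost when any of the 4 tumor-free CDP samples, samples 2 or 3 of the tumor-bearing CDPs, any of the 4 tumor-free MDP samples or sample 3 of the tumor-bearing MDPs was left out, with adjusted p up to 0.206 over all alternatives. With the slide as a block both probes were called (-1.17 and -1.0, adjusted p = 0.0279 and 0.0217), and on slides 2 to 4 alone neither was (adjusted p = 0.0863 and 0.0792).

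Tet1, which converts methylcytosine to hydroxymethylcytosine, had 3 probes over 27468 bases on the minus strand of chromosome 10 (mm9): chr10:62274448-62274507, chr10:62276042-62276101 and chr10:62301856-62301915. Bases 31 to 60 are shown in that order because 1 of the 3 was called and all 3 estimates lay below 0:
Tet1 A_55_P2122997: tttacttatagaatagagggtctctaaaaa
Tet1 A_51_P512172: tcctccgcagaaacatctacctgtacgtac
Tet1 A_55_P2123002: tgaaagtacaccagaaagccttgttgcaaa

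The called probe, A_55_P2122997, read -1.82, -2.08, -2.55 and -1.36 in tumor-free CDPs and -3.84, -3.65, -4.49 and -3.68 in tumor-bearing CDPs. The groups lay more than 1 log2 unit apart, a 3.90-fold fall (-1.96 ± 0.33, adjusted p = 0.0104), with -1.95, -1.86 and -1.67 within slides 2, 3 and 4. The brightest probe, A_55_P2123002, read 0.72, 0.46, -0.20 and 0.31 against -1.24, -2.09, -1.91 and 0.07. Sample 5 of the tumor-bearing CDPs stayed within the tumor-free range there, and the change of -1.62 ± 0.40 missed the threshold (adjusted p = 0.0605). A_51_P512172 changed by -1.04 ± 0.35 (adjusted p = 0.174), with no overlap between the groups. With the slide as a block all 3 were called, at -1.83, -1.59 and -1.24 (adjusted p = 0.00585, 0.0346 and 0.0164). On slides 2 to 4 alone A_55_P2122997 stayed called (-1.77, adjusted p = 0.0176) and the other probes were not (adjusted p = 0.119 and 0.146).

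**Figure D4:**
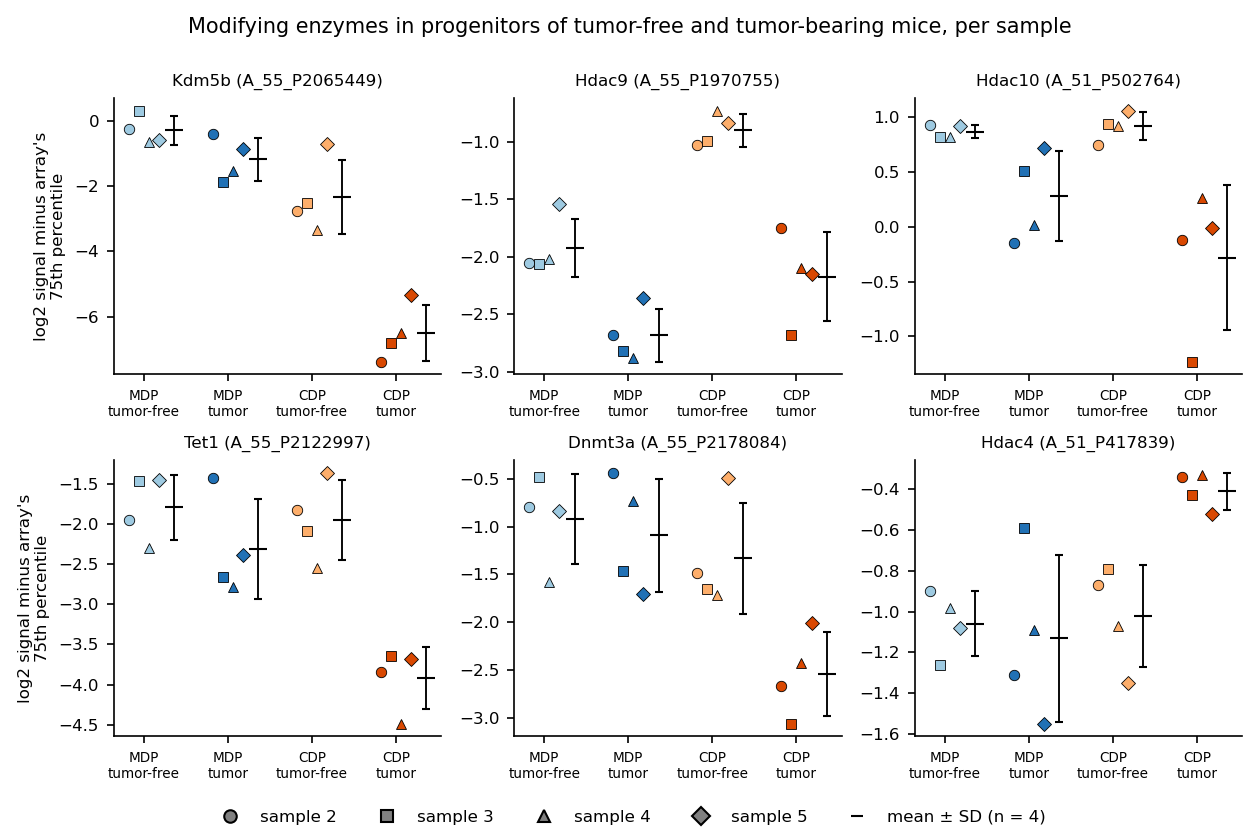
Log2 signal minus the array's 75th percentile (vertical axes, one scale per panel) of 6 enzymes in each of the 16 samples, by group. Marker shapes give the sample number, and bars are the mean ± SD of 4 samples. For Kdm5b, Hdac9, Hdac10, Tet1 and Dnmt3a the CDP samples from tumor-bearing mice lie below all CDP samples from tumor-free mice, and for Hdac4 above them.

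Dnmt3a and Hdac4 moved apart between the CDP groups without passing the adjusted test. The de novo DNA methyltransferase Dnmt3a read -1.48, -1.65, -1.72 and -0.49 in tumor-free and -2.67, -3.06, -2.43 and -2.01 in tumor-bearing CDPs (-1.21 ± 0.35, adjusted p = 0.110). The high tumor-free value was that of sample 5, on slide 1, and the slide block gave -0.88 with an adjusted p of 0.0212, against -0.92 and 0.110 on slides 2 to 4 alone. Hdac4, a class II deacetylase like Hdac9, went the other way, from -0.87, -0.79, -1.07 and -1.35 to -0.34, -0.43, -0.33 and -0.52 (0.61 ± 0.19, adjusted p = 0.139). Kdm3b, a demethylase of H3 lysine 9, had 1 probe of 3 (A_55_P1970655) at -1.11 ± 0.29 (adjusted p = 0.0720, 0.0312 under the slide block and 0.0613 on slides 2 to 4 alone) while its brightest probe changed by -0.10 and the dimmest by 0.48, both with overlapping groups.

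The remaining probes whose CDP groups did not overlap belonged to Kat5, Tet3, Setd1b and Setd2. Kat5, the catalytic subunit of the NuA4 acetyltransferase complex, read 2.08, 2.10, 2.31 and 1.94 in tumor-free and 2.38, 2.39, 2.42 and 2.39 in tumor-bearing CDPs by its brighter probe (0.29 ± 0.13, adjusted p = 0.375). The tumor-bearing samples were nearly level and just above the highest tumor-free one, and the second Kat5 probe was also higher, by 0.19. Tet3 A_55_P2175260 went from 0.96, 1.36, 1.26 and 0.98 to 0.31, 0.67, 0.89 and 0.91 (-0.44 ± 0.21, adjusted p = 0.373). Setd1b A_52_P468033 went from 1.82, 1.92, 1.76 and 1.99 to 1.40, 1.48, 1.62 and 1.50. Setd2, the enzyme that trimethylates H3 lysine 36, read -0.22, -0.11, -0.18 and 0.80 without and -0.58, -0.71, -0.38 and -0.30 with a tumor, and its change of -0.57 became -0.28 under the slide block, sample 5 of the tumor-free CDPs lying far above the others.

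By class, the arginine methyltransferases Prmt1, Prmt5 and Carm1 all read higher in tumor-bearing CDPs, by 0.36, 0.58 and 0.49, and all 3 Tet genes read lower, between -1.62 and -0.16 by their brightest probes. These directions held with the slide as a block and on slides 2 to 4 alone. Carm1 shrank to 0.18 and 0.22 there, and Tet2 by its brightest probe read -0.09 and -0.12. Under the block Prmt1, Prmt5, Tet1 and Tet3 read 0.44, 0.56, -1.59 and -0.32. The Tet2 probe A_55_P2074075 went the other way, at 0.67 under the block (limma, adjusted p = 0.788). Outside Tet1 no probe of either class passed the adjusted test. The KDM1 demethylases Kdm1a (-0.21) and Kdm1b (-0.43) and the 4 class I deacetylases (-0.53 to -0.20, Hdac8 lowest) were all below 0, and 1 of the 2 and 1 of the 4 changed sign under the slide block. Of the 10 JmjC demethylases tested, 9 were below 0, and 6 under the slide block. PRC2 ranged from -0.20 to 0.34, with Ezh2 at -0.19 and Eed at 0.34, and the acetyltransferases from -0.17 to 0.29, with Kat5 at 0.29. The lysine methyltransferases split 5 to 5, from Setd2 at -0.57 to Ehmt1 at 0.49, which became 0.10 under the slide block and whose other probe changed by -0.33. Setd1b by its brightest probe changed by -0.37 ± 0.12 (adjusted p = 0.158). Dnmt1 changed by -0.08 and Sirt1 by -0.25, which became 0.05 under the slide block and -0.02 on slides 2 to 4.

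The same comparison in MDPs called none of the 80 member probes, against 0.0656% of all tested probes. At an unadjusted p under 0.05 limma had 1 member probe higher and 8 lower (11.2% against 10.4% of all probes). A t-test at an unadjusted p under 0.05 with a fold change above 1.5 gave 4 member probes. After Benjamini-Hochberg adjustment, which the study's thresholds include, it gave 0. The share of all probes by that t-test is not given here. The groups did not overlap for 6 member probes (7.5% against 5.2%). The median change over members was -0.03, against -0.12 for all probes. All 6 class II deacetylases were below 0 (-0.76 to -0.08), which held on slides 2 to 4 and for 5 of them with the slide as a block. Their median of -0.55 shrank to -0.22 under the block and -0.15 on slides 2 to 4. Of the tumor-bearing MDP arrays 2 of 4 were on slide 1, where Hdac6 and Hdac7 read low, and of the tumor-free 1 of 4.

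Hdac9 had the smallest p of its class here. A_55_P1970755 read -2.05, -2.06, -2.02 and -1.54 in MDPs from tumor-free mice and -2.68, -2.82, -2.88 and -2.36 in those from tumor-bearing mice. The groups did not overlap, and the difference within slides 1, 2 and 3 was -0.72, -0.77 and -0.81, yet the change of -0.76 ± 0.20 did not pass (adjusted p = 0.244). The other probe, A_55_P2065074, read -4.59, -2.91, -5.45 and -3.99 without and -7.44, -5.78, -5.48 and -6.05 with a tumor. It was well above background on 3 of 4 and 0 of 4 arrays, at least 1.95-fold lower by its bound, with a fitted change of -1.95 ± 0.52 (adjusted p = 0.251).

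In MDPs the 3 Kdm5b probes (A_55_P2065449, A_52_P601980 and A_55_P1960576) changed by -0.88 ± 0.54, -0.65 ± 0.25 and -1.57 ± 0.48 with a tumor (adjusted p = 0.562, 0.426 and 0.319). Hdac10 changed by -0.60 in both probes (adjusted p = 0.476 and 0.470), and Tet1 by -0.41 to -0.52. Prmt1 changed by 0.40 ± 0.17 (adjusted p = 0.459), Dnmt3b by 0.27, Kat2a by 0.17, Ezh1 by -0.29 and Ehmt2 by -0.20 (-0.03 under the slide block). The 2 Hdac8 probes changed by -0.42 and 0.03, and the 3 Kdm3b probes by -0.34 to 0.01. Sirt1 and Kdm1b changed by 0.35 each, which became 0.05 and 0.11 under the slide block, and Kdm1b -0.19 on slides 2 to 4. The dimmest Tet2 probe, A_55_P2074075, spread from -7.44 to -4.12 in tumor-free MDPs, so its change of 1.28 ± 1.23, opposite to the other Tet2 probes, lay within its error.

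Whether the tumor comparison differed between CDPs and MDPs was tested directly, and none of the 80 probes passed (0.0146% of all tested probes did). At an unadjusted p under 0.05 there were 2 higher and 3 lower member probes, against 4.03% of all probes. The fitted change of Kdm5b A_55_P2065449 was 3.29 log2 units further down in CDPs (limma, -3.29 ± 0.76, unadjusted p = 0.000717, adjusted p = 0.605). Its signal was not well above background on any tumor-bearing CDP array, so the size of this difference is not measured. Tet1 A_55_P2122997 differed by -1.45 ± 0.47 and Hdac9 A_55_P2065074 by a fitted 1.68 ± 0.73 (adjusted p = 0.748 for both). The Hdac9 value has the same limit, since that probe was not well above background on any tumor-bearing MDP array. None of these differences passed the adjusted test. The falls called in CDPs are therefore not shown to be particular to CDPs.

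Between CDPs and MDPs from tumor-free mice, 1 enzyme was called higher in CDPs and 4 lower, against 4 called lower in the tumor comparison in CDPs. More probes were called here, since several of these enzymes were called by more than 1 probe. Of 80 member probes 10 were called (12.5% against 6.1% of all probes), 2 higher in CDPs (2.94% of all probes) and 8 lower (3.16%). Dnmt3b was lower in CDPs by all 3 probes, the acetyltransferase Kat2a by both, Kdm5b by 2 of 3, and the arginine methyltransferase Prmt5 by its single probe, while Hdac9 was higher by both. The tumor-free CDPs enter this comparison and the tumor comparison alike. The same contrast in tumor-bearing mice, in separate samples, called 11 member probes (13.8% against 7.26%), 2 higher (3.56%) and 9 lower (3.71%).

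Dnmt3b, the second de novo DNA methyltransferase, had probes at chr2:153512991-153513050, chr2:153513403-153513462 and, further along the same strand, chr2:153555606-153555665 (plus strand, mm9), 42675 bases in all. Bases 31 to 60, or 30 to 59 for the second, are printed in that order because all 3 gave the same result, with ATTAAA, a variant polyadenylation signal, in capitals:
Dnmt3b A_55_P2008874: gagaagctaggaccagaagcacatcgttcc
Dnmt3b A_55_P2130535: cctttctggttgATTAAAgttgtatttctc
Dnmt3b A_55_P1975903: gtgaatagttctacccaggactggggagct

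The brightest, A_55_P2130535, read 1.48, 1.62, 1.23 and 1.1 in MDPs and 0.22, 0.29, 0.30 and 0.70 in CDPs from tumor-free mice. With a tumor it read 1.89, 1.46, 1.88 and 1.27 in MDPs and 0.41, 0.34, 0.73 and 0.54 in CDPs. All 8 CDP samples lay below all 8 MDP samples, 1.97-fold without a tumor (-0.98 ± 0.18, adjusted p = 0.00508) and 2.17-fold with one (-1.12 ± 0.18, adjusted p = 0.00213). The other probes gave -1.33 and -1.18 without a tumor and -1.30 and -1.13 with one, all called. No Dnmt3b probe changed by more than 0.27 in either tumor comparison. ATTAAA lies in 4.56% of all probes on the probe strand (2.65% on the other) and in 5 of the 83 member probes (4 on the other), and AATAAA, which 12.6% of all probes hold (4.03% on the other), is in 10 member probes (4 on the other) and in no probe printed here.

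Kat2a, which acetylates histone H3 as part of large coactivator complexes, read 1.97, 1.76, 1.67 and 1.82 in MDPs and 0.72, 1.15, 1.1 and 0.72 in CDPs from tumor-free mice by A_55_P2049602. The groups did not overlap (-0.88 ± 0.18, 1.84-fold, adjusted p = 0.00909). In tumor-bearing mice the values were 1.82, 2.14, 2.12 and 1.83 in MDPs and 0.84, 1.30, 1.65 and 1.08 in CDPs (-0.76 ± 0.18, adjusted p = 0.0198). The second probe, A_55_P1974412, gave -0.98 and -0.69, both called. Prmt5, which sets symmetric dimethylarginine, read 2.24, 2.22, 2.5 and 2.44 in MDPs and 1.01, 1.44, 1.38 and 1.21 in CDPs without a tumor, 2.13-fold lower (-1.09 ± 0.22, adjusted p = 0.00827). With a tumor its CDP values were 1.30, 2.06, 2.49 and 1.50, and only sample 4 reached the MDP range of 2.38 to 2.66 (-0.71 ± 0.22, adjusted p = 0.0654). Prmt1 differed by -0.52 ± 0.17 and -0.55 ± 0.17 in the same comparisons (adjusted p = 0.0951 and 0.0636).

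**Figure D5:**
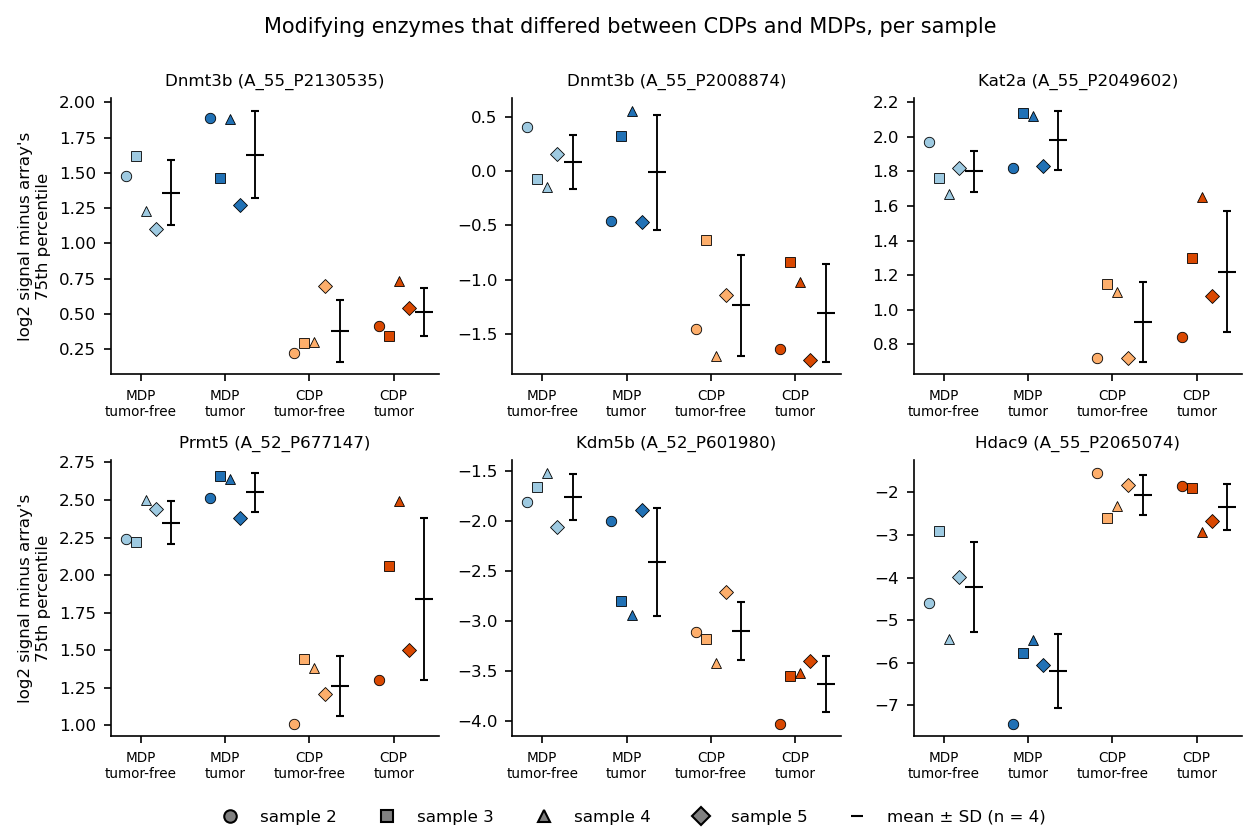
Log2 signal minus the array's 75th percentile (vertical axes, one scale per panel) in each of the 16 samples, for 6 probes called between CDPs and MDPs of tumor-free mice. Marker shapes give the sample number, and bars are the mean ± SD of 4 samples. Both Dnmt3b probes, Kat2a and the Kdm5b probe shown are lower in CDPs than in MDPs of the same tumor state, Prmt5 of tumor-bearing CDP sample 4 reaches the MDP range, and Hdac9 is higher in CDPs.

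Kdm5b was lower in CDPs than in MDPs also without a tumor. A_55_P2065449 read -0.24, 0.31, -0.66 and -0.57 in tumor-free MDPs, all above the 4 tumor-free CDPs (-2.05 ± 0.54, 4.13-fold, adjusted p = 0.0362). That call was lost when any tumor-free sample but sample 5 of the CDPs was left out (adjusted p up to 0.136 over all alternatives). With a tumor the MDPs read -0.40, -1.87, -1.53 and -0.87, and the CDPs were at least 17.2-fold lower (fitted -5.34 ± 0.54, adjusted p = 4.59e-05). A_52_P601980 was called in both, at -1.34 ± 0.25 and -1.22 ± 0.25 (adjusted p = 0.00508 and 0.00939), a smaller difference of the same direction. The third probe, A_55_P1960576, was called in neither, at -0.76 without and -0.43 with a tumor.

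Hdac9 was higher in CDPs. A_55_P1970755 was 2.03-fold higher without a tumor, with no overlap (1.02 ± 0.20, adjusted p = 0.00669), and 0.51 ± 0.20 higher with one (adjusted p = 0.128). A_55_P2065074 was 2.17 ± 0.52 higher without a tumor (4.50-fold, adjusted p = 0.0208), a call lost without samples 2 or 4 of the MDPs or samples 2 or 5 of the CDPs and after normexp or quantile normalization. With a tumor it was at least 7.25-fold higher (fitted 3.85 ± 0.52, adjusted p = 0.000474), the MDP signal not being well above background on any array.

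Tet1, Dnmt3a and Hdac4 were called between CDPs and MDPs in tumor-bearing mice only, and the difference between the contrasts is the one tested above, which none of them passed. Tet1 A_55_P2122997 was 3.04-fold lower in CDPs (-1.61 ± 0.33, adjusted p = 0.00952), against -0.16 ± 0.33 without a tumor. Dnmt3a was 2.74-fold lower (-1.46 ± 0.35, adjusted p = 0.0228, -0.81 with an adjusted p of 0.0377 under the slide block, and 0.109 on slides 2 to 4) against -0.41 ± 0.35, and its call was lost without samples 2 or 4 of the MDPs or samples 2 or 3 of the CDPs. Hdac4 was 1.66-fold higher (0.73 ± 0.19, adjusted p = 0.0348) against 0.04 ± 0.19, and its call was lost without any tumor-bearing sample but sample 3 of the MDPs, and with the slide as a block. The Kat2a calls in tumor-bearing mice were lost without sample 4 of the MDPs or samples 2 or 5 of the CDPs, the brighter probe also without sample 3 of the MDPs. The Dnmt3b A_55_P2008874 call was lost without sample 4 of the MDPs or samples 2 or 5 of the CDPs. The tumor-free call of that probe was lost without sample 2 of either progenitor or sample 4 of the CDPs.

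With the slide as a block, 14 member probes were called between CDPs and MDPs of tumor-bearing mice, 4 of them not called without it, and the Hdac4 call was lost. The share of all tested probes called by that fit is not given here, so the 14 are not read as an excess. The acetyltransferase Kat2b differed by 0.39 without the block and 0.81 with it (adjusted p = 0.00648), and Ep300 by 0.56 and 0.68 (adjusted p = 0.0203). Tet2 A_55_P2051405 differed by 0.19 and 0.82 (adjusted p = 0.00989), and the lysine methyltransferase Setd7 by -0.33 and -0.63 (adjusted p = 0.0327). On slides 2 to 4 alone none of these 4 was called (adjusted p = 0.0902, 0.129, 0.0865 and 0.174). In tumor-free mice the block added 1 probe, Kdm3b A_55_P1970655, at 0.77 (adjusted p = 0.0313, and 0.0782 on slides 2 to 4).

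No other member passed both thresholds between the progenitors of tumor-free mice. Setd1b, a methyltransferase of H3 lysine 4, passed the adjusted test at 0.45 ± 0.12 (adjusted p = 0.0416) but at 1.37-fold stayed under the fold threshold. Among the members with the smallest p of their class, Ezh2 differed by 0.17, Tet3 by 0.31, Kdm1a by -0.41, Hdac2 by -0.37 and Sirt1 by 0.34, with adjusted p from 0.557 to 0.818. The median over members was 0.04, against 0.02 for all probes.

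A wider list of 95 chromatin genes, made of PRC1, PRC2 and COMPASS subunits, deacetylase corepressors, DNA methylation readers, BET readers and the remaining writers and erasers, had 94 genes tested through 154 probes. In CDPs with a tumor 1 of those probes was called (0.649% against 1.8% of all tested probes), that of Kmt5b, a methyltransferase of H4 lysine 20, at -0.86 (adjusted p = 0.0487), while its other probes changed by -0.34 and -0.10. In MDPs with a tumor 0 were called by limma. Between CDPs and MDPs, 6 probes were called without a tumor (3.90% against 6.1%) and 15 with one (9.74% against 7.26%).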

How the data were processed

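RNA of 16 sorted progenitor samples was measured on one-color Agilent mouse arrays. For each array the authors deposited a Feature Extraction 11.5.1.1 table of spot intensity, background-subtracted within the array but not scaled between arrays, and a table of log2 values, 26793 probes long, whose columns each matched their own array after quantile normalization (r at least 0.9998). That deposited log2 table was an alternative only. The submitters' notes name limma.

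Control spots and outlier spots (182 to 289 per array) were left out, the array's 75th percentile of log2 processed signal was subtracted, and spots of a probe were averaged. None of the probes was saturated. Groups were taken from the sample titles, and their 4 means were fitted over 16 arrays with limma 3.58.1 in R 4.3.3. Thresholds are those of the study's methods. Single probes also had an exact two-sided permutation test, which cannot go below p = 0.0286. Samples came from independent experiments by the series' design, but the number of arrays limits precision, and the median standard error of a tumor comparison was 0.306. A probe dim in all arrays of a group has only a bound, set against the lowest signal well above background on those arrays. Positions are mm9, as the array files give them, and were not mapped anew. Each of the 53 symbols is in RefSeq, and 2 of 78 placed probes (both of Hdac1) lie on another chromosome than the gene. Hdac6 and Setd1b each have 2 probes that share 48 and 44 bases.

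Members and lists were chosen with earlier results of these data known. Described in full were members called in any of 5 comparisons, Kdm5b, the member with the smallest p of its class in each tumor comparison and between tumor-free progenitors, and members whose probes differed by over 1 log2 unit in a tumor comparison, 24 in all. The fits were tested on simulated data. Each result was also computed after quantile normalization, after normexp with an offset of 50, with scaling to probes detected on all arrays, without a filter or with one on all 16 arrays, from the log2 table, with slide or replicate number as a block, with only the groups compared, by the methods' t-test, at other thresholds, without each array and, added after seeing the data, slides 2 to 4 alone.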

Additional observations from a re-analysis of the deposited data

Results flagged for a closer look

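Among 184 groups of 4 values, those of every tested probe of the 24 members described in full, 15 had 1 sample standing apart from the other 3 by Dixon's test, where chance marks about 1 group in 20. Sample 5 of the CDPs from tumor-free mice, on slide 1, stood apart 4 times: Kdm1a A_55_P1993820 read 1.14 there with the next sample at -0.03, Dnmt3b A_55_P2130535 read 0.70 next to 0.30, Hdac8 A_51_P481191 read -2.52 next to -1.69, and Kdm3b A_55_P1970660 read -5.20 next to -3.59. Sample 3 of the MDPs from tumor-free mice, also on slide 1, stood apart 3 times, in Tet2 A_55_P2081303 (1.17 next to 0.06), Tet2 A_55_P2051405 (-2.16 next to -2.94) and Prmt1 A_55_P2021821 (2.82 next to 2.47). Another slide 1 array, sample 4 of the MDPs from tumor-bearing mice, read -0.48 in Kdm3b A_55_P1970665 next to -0.05.

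In CDPs from tumor-bearing mice, sample 4 read -3.64 in Tet1 A_51_P512172 next to -2.30 and 2.38 in Ezh2 A_55_P2041397 next to 2.07. Sample 3 read -1.40 in Hdac10 A_55_P1971804 next to -0.46. Sample 5 read 0.90 in Ezh1 A_55_P2082869 next to 0.42. In tumor-free mice, sample 5 of the MDPs read -1.54 in Hdac9 A_55_P1970755 next to -2.02 and -0.32 in Dnmt3b A_55_P1975903 next to -0.45, and sample 2 of the CDPs read -2.15 in Setd1b A_55_P1977741 next to -1.87.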

How the results depend on the processing

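Of the 25 changes called for a member probe, none changed sign under an alternative, and 660 of 745 values kept the call while 85 lost it. Part of that tally was fixed in advance. A relaxed threshold keeps every call, and leaving out an array of a group outside the comparison leaves the change itself as it was. The tally is therefore not a measure of how firm the calls are. With the slide as a block, the 4 member probes called in the tumor comparison in CDPs became 9. The block also raised the calls over all tested probes from 494 to 1248. The 4 member calls became 7 at an adjusted p under 0.1, and 11 with the methods' t-test at an unadjusted p under 0.05. They became 0 with that t-test after Benjamini-Hochberg adjustment or with only the CDP groups in the fit. When arrays were left out in turn, they ranged from 3 to 5, while the calls over all tested probes ranged from 155 to 581. The members' median change in CDPs of -0.19 became -0.04 with the slide as a block and -0.05 on slides 2 to 4, and ranged from -0.24 to -0.05 leaving out arrays. In MDPs the count of 0 became 4 with the t-test at an unadjusted p and stayed at 0 under every left-out array, and the median ranged from -0.05 to -0.02. The difference of the tumor comparisons gave 0 throughout. Between CDPs and MDPs of tumor-free mice the count of 10 ranged from 7 to 10 leaving out arrays. It became 8 with only those groups, and the slide block added Kdm3b A_55_P1970655. In tumor-bearing mice the count of 11 became 5 with only those groups and 6 on slides 2 to 4. The t-test gave 17 at an unadjusted p and 4 after adjustment. Leaving out arrays moved the count between 6 (without sample 4 of the MDPs or sample 2 of the CDPs) and 13. For the t-test, the relaxed threshold and the alternatives between progenitors, shares of all tested probes are not given here. Deviations of same-numbered samples from their group means correlated with a median of -0.00522 over 24 pairs, 8 of them above 0.1. Over 22 pairs on the same slide the median was 0.263. Since slide enters these correlations, they cannot show whether same-numbered samples were paired. With the sample number as a replicate block the fit left 3 calls in CDPs (Hdac10 lost, adjusted p = 0.0707), 0 in MDPs, 0 for the difference, and 10 and 11 between progenitors. Over all tested probes that fit called 371 in CDPs and 10 in MDPs, against 494 and 18 without the block. Scaling moved the median of all probes in MDPs from -0.12 to 0.00 (quantile) or -0.19 (normexp). Signals near background limit Kdm5b A_55_P2065449 and Hdac9 A_55_P2065074 to bounds where a group was not well above background.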
